A study of Mus musculus with 3 samples.

Results

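The 10 genes that carry the NT-3 and CNTF signals into the cell were followed through a map of Nkx2.2 occupancy in cultured mouse cells, with 1 library of dividing oligodendrocyte progenitors (OPCs) and 1 of oligodendrocytes (OLs) derived from them. They are the receptor genes Ntrk2, Ntrk3, Ngfr, Cntfr, Lifr and Il6st, the kinase genes Jak1 and Jak2, the transcription factor gene Stat3 and its feedback inhibitor gene Socs3. Every region of the deposited table to which the authors assigned one of these genes was taken. All 10 genes had at least 1 region, beside 56.6% of all protein-coding genes. This difference was not tested. The genes were chosen with earlier results of these data known, and gene length was not taken into account. Together the 10 genes had 38 of the 37271 regions, with no region shared between 2 of them. Nkx2.2 is a homeodomain transcription factor of the oligodendrocyte lineage, measured by chromatin immunoprecipitation and sequencing.

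Progenitors of C57BL/6 mice were purified from the cortex at postnatal day 7 by an antibody to PDGFRA. The OPC library came from cells kept dividing with PDGF-AA (10 ng/mL), NT-3 (1 ng/mL) and CNTF (10 ng/mL), and the OL library from cells deprived of PDGF-AA and given T3 (40 ng/mL) for 48 h. The labels list 2% B27 for both libraries and 2 days in the dish for the OPC cells. Both kinds of cell had been expanded with NT-3 and CNTF, and the labels name no removal of either from the OL medium. Each library was made from 1.5e7 cells, the cell states have 1 library each, and the input was left out. The differences below therefore lie between 2 libraries, have no replicate check and carry no test. Depth is unknown, because the table holds signal and not read counts. Occupancy does not measure expression, so the labelled cell types could not be checked against their markers.

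NT-3 is a neurotrophin that signals mainly through TrkC, the receptor tyrosine kinase encoded by Ntrk3. It also binds TrkB, encoded by Ntrk2, and the low-affinity receptor encoded by Ngfr. CNTF binds CNTF receptor alpha, encoded by Cntfr, which has no signalling domain of its own and assembles with the LIF receptor (Lifr) and gp130 (Il6st). JAK1 and JAK2 sit on these chains and phosphorylate STAT3, and STAT3 switches on Socs3, whose product binds gp130 and the kinases and ends the signal. Both factors are used to keep oligodendrocyte lineage cells alive in culture.

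Nkx2.2 regions lay at every step of the pathway, and the shares of regions called in each library were near those of all regions. Of the 38 regions 33 were called in OL, 86.8% (exact Clopper-Pearson 95% interval 71.9 to 95.6%), beside 85.3% of all regions. In OPC 16 were called, 42.1% (26.3 to 59.2%), beside 38.6% of all regions. Calls in both libraries were seen at 11 regions, in OL only at 22 and in OPC only at 5, against 23.8%, 61.4% and 14.7% of all regions. The intervals cover counting error over regions only, and several regions share a gene. At the level of genes, 10 of 10 had an OL call, against 94.8% of the 14473 gene names with a region. An OPC call was found at 8 of 10, all but Ngfr and Cntfr, against 57.3%. The only OPC call of Ntrk3 lay downstream of the gene. The 8 genes with an OPC call had 3 to 8 regions each and the other 2 had 1 each, and a gene with more regions has more chances of a call.

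The size of the difference between libraries was expressed as log2((OL + 1) / (OPC + 1)) of the average signal, where a value above 0 means more signal in OL. Its median was 0.70 over the 38 regions and 0.74 over all regions. A value of 1 or more was found at 14 member regions, beside 37.5% of all regions, and one of -1 or less at 3, beside 7.03%. These counts depend on how the libraries are scaled. When 0.24 was subtracted from every value, which puts the regions called in both libraries at a median of 0, the counts were 8 and 8, beside 27.2% and 10.1% of all regions. When 0.74 was subtracted, which puts all regions at a median of 0, they were 2 and 9, beside 13.2% and 17.5%. Values above 0 were found at 28 regions, beside 77.4% of all regions, and 18 of these stayed above it under both shifts. The other 10 did not. The regions of Ntrk2 at 234562 bp, Ntrk3 at 266 bp upstream, Lifr at 58463 bp and Socs3 at 5575 bp fell below 0 under both shifts. The regions of Ntrk2 at 34494 bp, Ngfr, Cntfr, Jak1 at 54 bp upstream and at 19281 bp, and Socs3 at 208 bp upstream did so under the larger shift alone. No average in the table lay between 0 and 1, so a weak library is listed at 1 or at 0 and ratios against such values rest on that step. These values can be read in the plot of both libraries at every region.

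**Figure D1:**
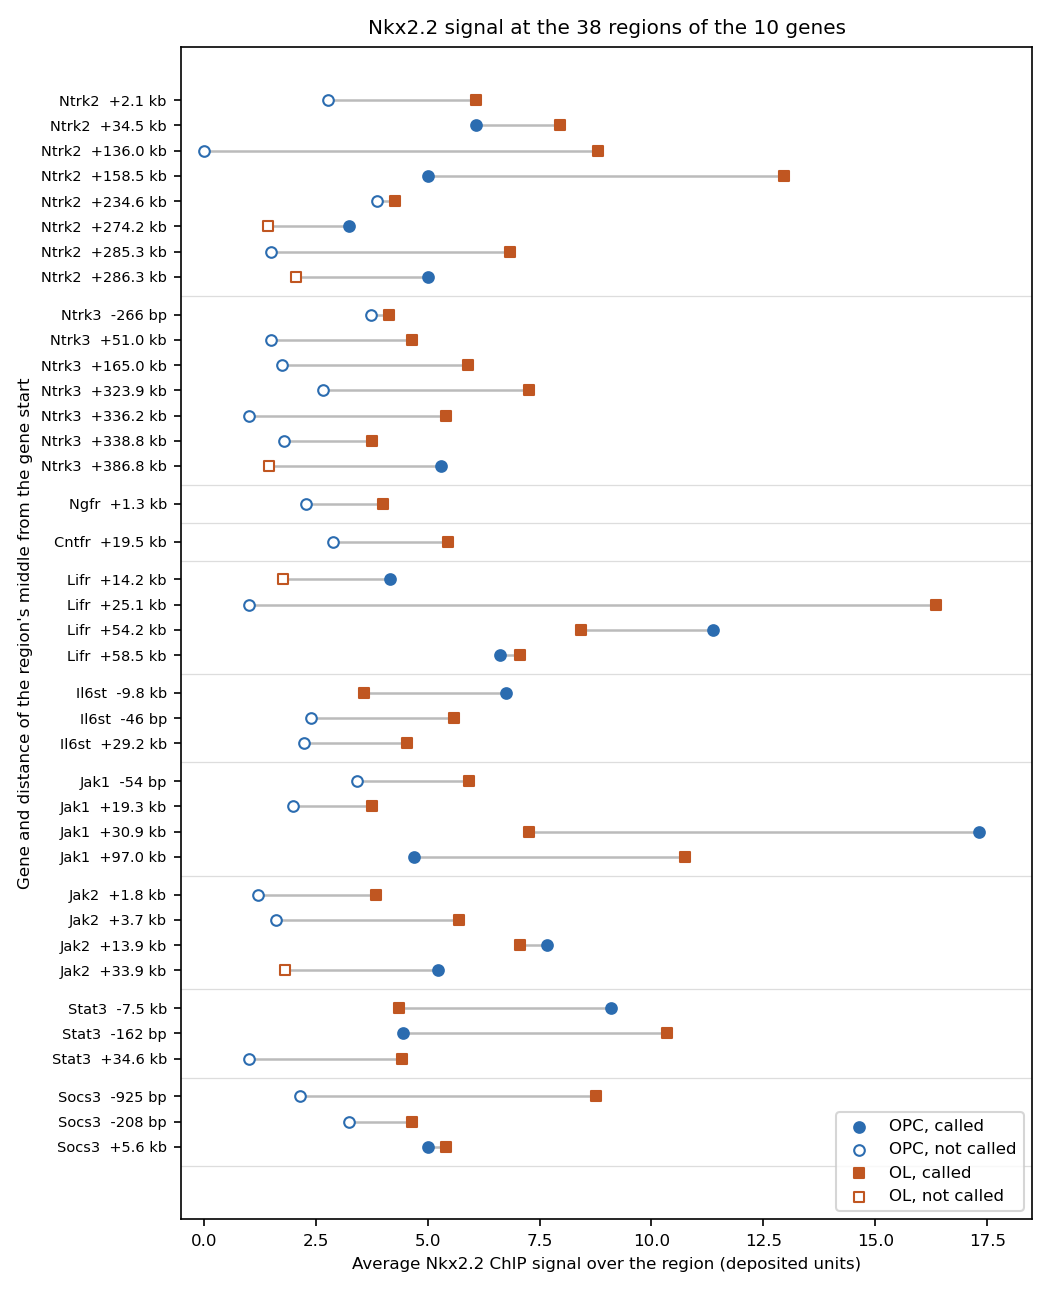
Average Nkx2.2 ChIP signal (horizontal axis, deposited units) in the OPC library (circles) and the OL library (squares) at each of the 38 regions, listed by gene and by the distance of the region's middle from the gene start (vertical axis); filled marks are called and open marks are not. The longest lines are at Lifr +25.1 kb, where OL had 16.4 and OPC 1.00, and at Jak1 +30.9 kb, where OPC had 17.3 and OL 7.27.

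The starts of the receptor chain gp130, of JAK1, of STAT3 and of SOCS3 were each covered by a region. Within 1 kb of a member's start there were 6 regions, 15.8% of the 38, beside 17.7% of all regions, and they belonged to 5 genes: Ntrk3, Il6st, Jak1, Stat3 and Socs3. All 6 were called in OL, beside 92.9% of all regions within 1 kb of a start, and only the Stat3 region was also called in OPC, beside 40.6%. The values of log2((OL + 1) / (OPC + 1)) were above 0 at all 6, beside 86.4% of all such regions, although those at Ntrk3, Jak1 and 1 of the 2 at Socs3 are among the values that depend on scaling. A start within 1 kb of a region was thus found for 5 of 10 members and a start covered by one for 4 of 10, beside 48.9% and 39.7% of all gene names with a region. CpG islands, stretches rich in CpG dinucleotides found at many starts, were assigned to 5 of the 6, all but the outer Socs3 region. In all 8 member regions had a CpG island, beside 18.0% of all regions. The log2 ratio was above 0 at these 8, beside 87.1% of all regions with an island, with 5 of the 8 dependent on scaling as listed above, and 2 were called in OPC, beside 39.4%.

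The 250 bases before the RefSeq start of the 4 covered genes are shown because a region spans each of these starts in the deposited build. They come from RefSeq on build GRCm38.p6, whereas the regions are on mm9, so these sequences were not placed within the regions by coordinate. They lie at chr13:112463820-112464069 on the plus strand for Il6st and, on the minus strand, at chr4:101265224-101265473 for Jak1, chr11:100939541-100939790 for Stat3 and chr11:117969367-117969616 for Socs3. Capitals mark a match to a STAT site, searched as TTCNNNGAA.
Il6st: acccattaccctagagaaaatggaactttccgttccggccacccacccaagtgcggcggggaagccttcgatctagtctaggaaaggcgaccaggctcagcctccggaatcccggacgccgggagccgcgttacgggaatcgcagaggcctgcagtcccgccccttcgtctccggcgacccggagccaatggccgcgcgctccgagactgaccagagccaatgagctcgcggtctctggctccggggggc
Jak1: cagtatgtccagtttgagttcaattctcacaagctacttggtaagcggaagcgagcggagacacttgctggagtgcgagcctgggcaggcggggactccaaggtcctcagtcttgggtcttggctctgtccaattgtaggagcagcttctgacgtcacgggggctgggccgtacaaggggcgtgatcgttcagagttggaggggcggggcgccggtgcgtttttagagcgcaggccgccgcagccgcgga
Stat3: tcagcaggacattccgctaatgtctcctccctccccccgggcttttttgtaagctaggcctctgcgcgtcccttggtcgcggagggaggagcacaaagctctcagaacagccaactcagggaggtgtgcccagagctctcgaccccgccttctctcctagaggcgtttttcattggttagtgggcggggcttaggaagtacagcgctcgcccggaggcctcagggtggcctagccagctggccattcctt
Socs3: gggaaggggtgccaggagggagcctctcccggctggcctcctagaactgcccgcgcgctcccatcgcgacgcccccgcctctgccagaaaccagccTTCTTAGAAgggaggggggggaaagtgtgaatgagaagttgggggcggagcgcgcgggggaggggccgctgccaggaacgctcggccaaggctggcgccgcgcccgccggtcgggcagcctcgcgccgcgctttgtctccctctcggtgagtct
GC made up 66.0% of the Il6st window, 61.2% of Jak1, 60.8% of Stat3 and 71.6% of Socs3, against a median of 52.4% over the 32851 windows of the RefSeq table. The windows held 26, 19, 13 and 26 CpG pairs, against a median of 6. The STAT letters TTCNNNGAA, which read the same on both strands, matched once, in Socs3 as TTCTTAGAA from 154 bases before the start, and 7.02% of all windows held a match. The stricter form TTCCNGGAA, which the first motif contains, matched none of the 4 and 0.913% of all windows. The Nkx2 family core TNAAGTG, searched on both strands, matched none of the 4, beside 10.1% of all windows. RefSeq promoter windows were found for 9 of the 10 genes, all but Ntrk3, and over them the core matched only in Ngfr, on the minus strand 150 bases before the start.

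The neurotrophin receptor genes held 16 of the 38 regions, most of them far inside the 2 Trk genes. Ntrk2 had 8 regions, all in the gene, from 2087 to 286346 bp past its start, with 4 called in OPC and 6 in OL. Its highest, at chr13:59065952-59066874 and 158456 bp into the gene, had an average signal of 5.0 in OPC and 13.0 in OL, and was called in both. The value in OL was above that of 95.6% of all regions, and log2((OL + 1) / (OPC + 1)) was 1.22. A region at 136027 bp, 21625 bp before it, had 8.81 in OL and was listed at 0 in OPC, as 6.04% of all regions were.

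Both directions occurred side by side near the far end of Ntrk2. A region 285306 bp into the gene (chr13:59192959-59193568) had 1.5 in OPC and 6.84 in OL and was called in OL only. Only 373 bp beyond it, the region at chr13:59193941-59194665 had 5.0 in OPC and 2.06 in OL and was called in OPC only. Their log2 ratios were 1.65 and -0.97. Another region of this stretch, at 274191 bp, was also called in OPC only, with 3.24 in OPC and 1.44 in OL. The region nearest the Ntrk2 start, 2087 bp inside the gene and on a CpG island, had 2.77 in OPC and 6.09 in OL. The regions at 34494 and 234562 bp had 6.08 and 3.88 in OPC and 7.95 and 4.27 in OL.

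Ntrk3, the gene of the main NT-3 receptor, had 7 regions, and 6 of them were called in OL only. Of these 6, 5 lay in the gene, from 51034 to 338847 bp past the start, with 1.00 to 2.67 in OPC and 3.75 to 7.27 in OL. The highest, 323931 bp into the gene at chr7:85398567-85399294, had 2.67 in OPC, 7.27 in OL and a log2 ratio of 1.17. The sixth, 266 bp upstream of the start and assigned 2 CpG islands, had 3.73 in OPC and 4.14 in OL. The remaining region lay downstream of the gene, 386769 bp from its start (chr7:85335600-85336585), and was called in OPC only. It had 5.30 in OPC and 1.46 in OL, and its log2 ratio of -1.36 was the lowest of the 38. Ngfr had 1 region, 1313 bp into the gene and on a CpG island, with 2.27 in OPC and 4.0 in OL and a call in OL only. In both libraries this was the weakest of the 10 genes by their highest region.

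The CNTF receptor genes differed in how many regions they had and in which library was higher. Cntfr, the gene of the chain that binds CNTF, had 1 region, 19512 bp into the gene (chr4:41624247-41624878), with 2.90 in OPC and 5.45 in OL and a call in OL only. Lifr had 4 regions, and the region 25089 bp into the gene, at chr15:7115418-7115844, had the highest OL value of all 38, 16.4, beside 1.00 in OPC. It was called in OL only, and its log2 ratio of 3.12 was above that of 99.1% of all regions. The highest signal within this region was 37 in OL and 1 in OPC.

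The other regions of Lifr did not share this pattern. The one nearest its start, at 14216 bp, was called in OPC only, with 4.15 in OPC and 1.77 in OL. Of 2 regions downstream of the gene, both called in both libraries, the nearer at chr15:7144185-7145335 had 11.4 in OPC and 8.43 in OL. The farther had 6.61 and 7.07 and was also assigned to Egflam. No Lifr region lay within 1 kb of the start used for the deposited distances. RefSeq gives 2 starts for Lifr, with 43 and 3 CpG pairs in the windows before them. Which of them the distances refer to, and whether a region lay at the other, was not determined. The region called nearest the start is therefore nearest to the deposited start only.

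Il6st, which encodes the signalling chain gp130 shared by the whole cytokine family, had 3 regions. A region on its start, 46 bp upstream by its middle (chr13:113253963-113254580) and the one whose promoter sequence is printed above, had 2.40 in OPC and 5.58 in OL and a log2 ratio of 0.95. A second, 29211 bp into the gene, had 2.25 and 4.53, and both were called in OL only. The third lay 9829 bp upstream (chr13:113244264-113244713), was called in both libraries and had 6.75 in OPC, 3.57 in OL and a log2 ratio of -0.76. Signal was thus lower in OL at the upstream region and higher in OL at the start.

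**Figure D2:**
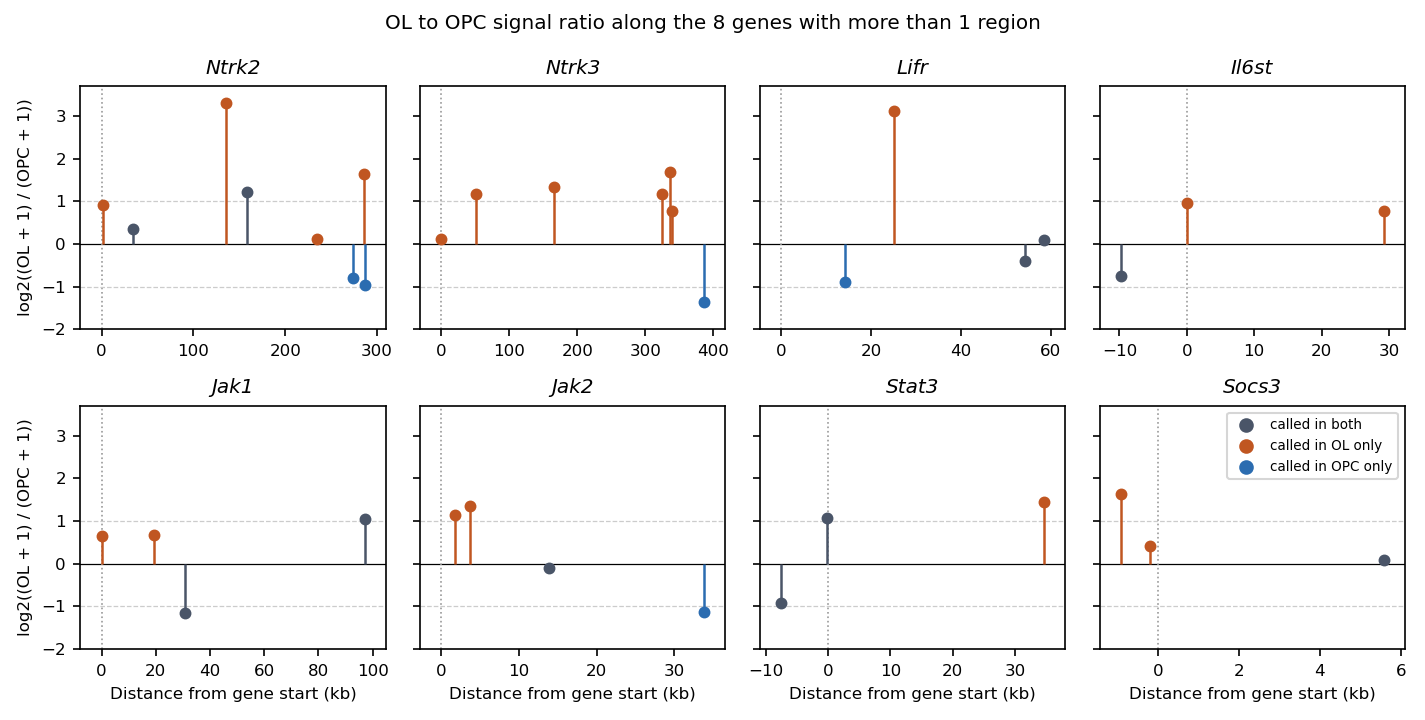
Ratio of OL to OPC average signal, as log2((OL + 1) / (OPC + 1)) (vertical axis), against the distance of each region's middle from the gene start in kb (horizontal axis, a separate linear scale for each gene) for the 8 genes with more than 1 region; colours give the calls, the dotted line the start and the dashed lines 1 and -1. Of these 8 genes, 7 had regions on both sides of 0. The share of all gene names with regions on both sides was not computed. Values below 0 were found at 26.3% of member regions, beside 22.5% of all regions. A gene with more regions has more chances of both signs. At Socs3 all 3 values were above 0 as deposited, 1 of them also after both rescalings.

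Jak1 held the strongest OPC region among the kinases and among all 38. At chr4:100906662-100907294, 30909 bp into the gene, the OPC library had 17.3 and the OL library 7.27, with calls in both. The OPC value was above that of 99.2% of all regions, and the log2 ratio was -1.15. At chr4:100840497-100841272, 97003 bp into the same gene, the order was the opposite, with 4.71 in OPC, 10.8 in OL, a log2 ratio of 1.04 and calls in both. The region on the Jak1 start had 3.42 in OPC and 5.93 in OL, and one at 19281 bp had 2.00 and 3.77, both called in OL only.

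Jak2 had 4 regions, all in the gene, with more OL signal at those near the start and more OPC signal at the farthest. The regions at 1820 and 3658 bp were called in OL only, with 1.22 and 1.61 in OPC and 3.86 and 5.71 in OL. At 13910 bp (chr19:29339713-29340743) both libraries had a call, with 7.67 in OPC and 7.07 in OL. At 33860 bp (chr19:29359899-29360458) the call was in OPC only, with 5.22 in OPC and 1.82 in OL. The log2 ratios of the outermost pair were 1.13 and -1.14.

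Stat3, the transcription factor of the pathway, had its highest OL signal on its own start. There, at chr11:100800528-100801447, the OPC library had 4.44 and the OL library 10.3, with calls in both and a log2 ratio of 1.06. This was the only member start called in both libraries. A region 7538 bp upstream, at chr11:100807904-100808823 and also assigned to Ptrf, had 9.11 in OPC and 4.36 in OL, was likewise called in both and had a log2 ratio of -0.92. A region 34633 bp into the gene had 1.00 and 4.43 and was called in OL only.

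Socs3 had 2 neighbouring regions before its start, 226 bp apart, and 1 behind the gene. The outer one, 925 bp upstream at chr11:117831174-117831629, had 2.14 in OPC, 8.77 in OL and a log2 ratio of 1.64. The inner one covers the start at chr11:117830420-117830948 and had 3.25 and 4.65. Both were called in OL only. The region downstream, 5575 bp from the start and on a CpG island, was called in both, with 5.0 in OPC and 5.40 in OL.

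Regions called only in OPC and only in OL occurred together in Ntrk2, Ntrk3, Lifr and Jak2. These are 4 of the 8 members with 3 or more regions, beside 40.1% of all 4184 gene names with that many. A single value per gene therefore hid much of the variation. With each gene represented by its highest region, log2 ratios of 1 or more were found at 5 members (Ntrk2, Ntrk3, Lifr, Stat3 and Socs3), beside 34.7% of all gene names, and of -1 or less at 1 (Jak1), beside 4.19%. Averaged over all regions of a gene, the ratio lay between 0.30 (Jak1) and 0.73 (Cntfr), with no member at 1 or at -1. Jak1 turned from -1.15 to 0.30 and Lifr went from 3.12 to 0.48, so 1 region decided each of these values. The region nearest the start gave 0.65 for Jak1 and -0.90 for Lifr. Il6st and Jak2, at -0.76 and -0.10 by their highest region, were above 0 by both other summaries, with means of 0.32 and 0.31 and 0.95 and 1.13 nearest the start.

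**Figure D3:**
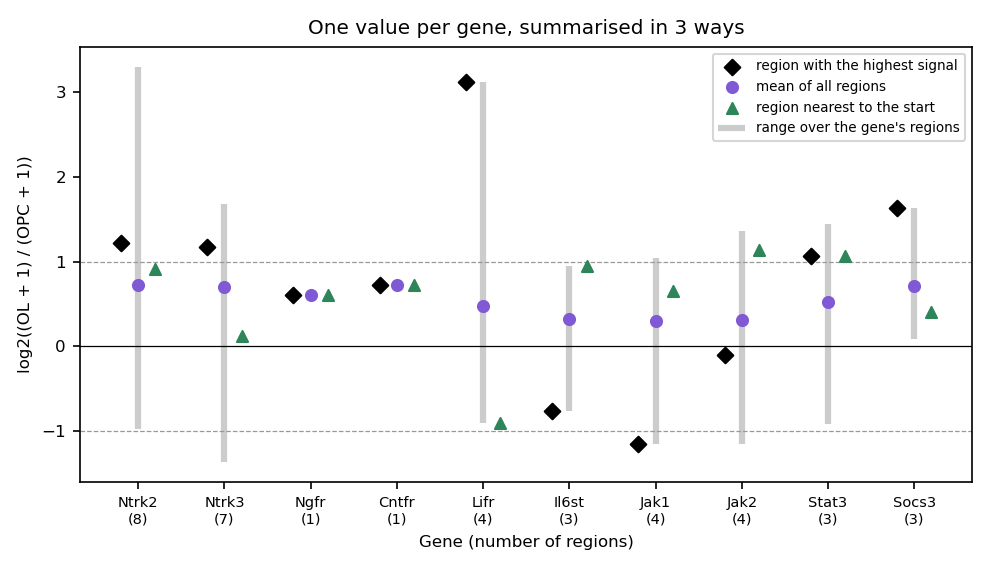
The log2((OL + 1) / (OPC + 1)) of each of the 10 genes (vertical axis; gene and number of regions on the horizontal axis) taken from its highest region (diamonds), as the mean of its regions (circles) and from the region nearest the start (triangles), with grey bars for the range over regions and dashed lines at 1 and -1. The means lie between 0.30 and 0.73, while single regions run from -1.36 in Ntrk3 to 3.29 in Ntrk2.

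Ordered by the highest average signal in OPC, the genes ran Jak1 (17.3), Lifr (11.4), Stat3 (9.11), Jak2 (7.67), Il6st (6.75), Ntrk2 (6.08), Ntrk3 (5.30), Socs3 (5.0), Cntfr (2.90) and Ngfr (2.27). In OL the order was Lifr (16.4), Ntrk2 (13.0), Jak1 (10.8), Stat3 (10.3), Socs3 (8.77), Ntrk3 (7.27), Jak2 (7.07), Il6st (5.58), Cntfr (5.45) and Ngfr (4.0). No spread over samples is available, so which neighbours in these orders differ was not tested. The highest of several regions also tends to be higher than a single one, and Ngfr and Cntfr, at the end of both orders, had 1 region each against 3 to 8 in the others.

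**Figure D4:**
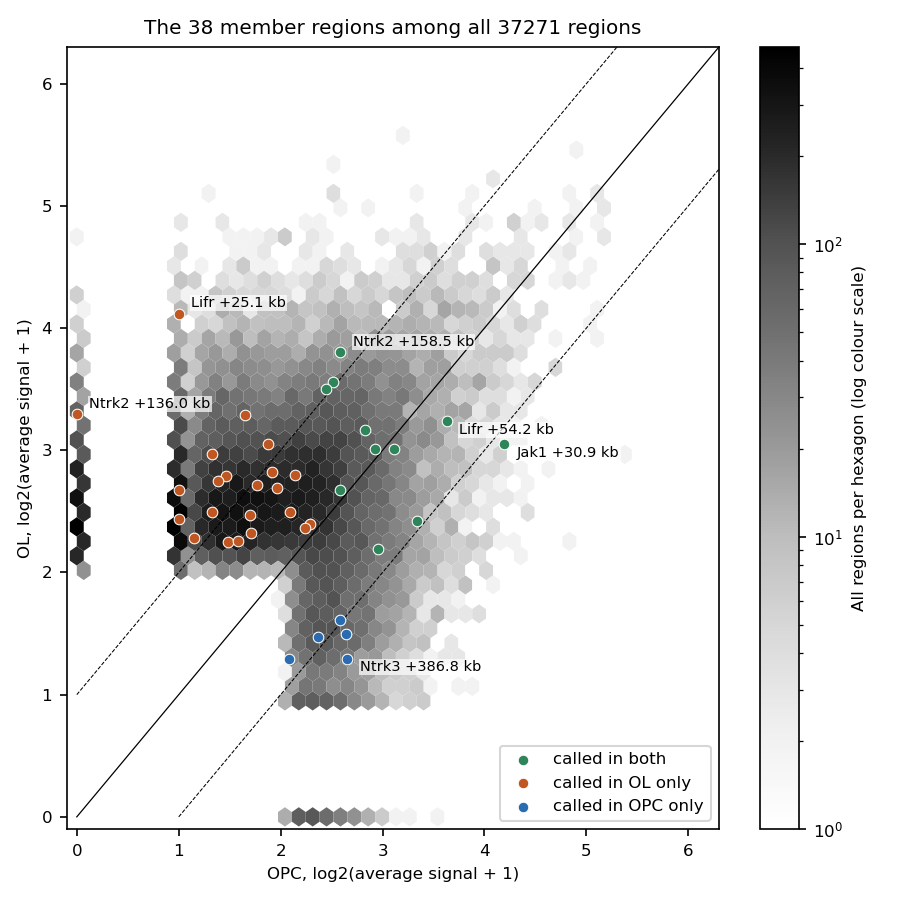
Average signal of every region in OPC (horizontal axis) and OL (vertical axis), both as log2(signal + 1), with all 37271 regions as grey hexagons and the 38 member regions as coloured points by their calls; the solid line marks equal signal and the dashed lines a log2 ratio of 1 and -1. The member log2 ratios run from -1.36 to 3.29, inside the range of -3.84 to 5.27 over all regions. Among the members, Jak1 at 30.9 kb has the highest OPC signal and Lifr at 25.1 kb the highest OL signal.

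Beyond the 10 genes, 6 lists cover ligands, other receptors, adaptors, other JAK and STAT genes, inhibitors and STAT3 targets. Over all 14473 gene names the median log2 ratio of the highest region was 0.73, and 56.6% of protein-coding genes had a region. Of these gene names 57.3% had an OPC call and 94.8% an OL call, and the highest region was at 1 or more in 34.7% and at -1 or less in 4.19%. With the mean of each gene's regions in its place, 27.9% were at 1 or more and 2.09% at -1 or less. The counts of each list stand beside these shares and were not tested against them. Signals printed for a list gene refer to its highest region unless another is named. The gene of NT-3 itself, Ntf3, had no region. Regions were found at 8 of 12 ligand genes, 3 with an OPC call and 8 with an OL call. Their median log2 ratio was 1.22, with 5 genes at 1 or more, beside 34.7% of all gene names, and 0 at -1 or less. The 5 became 4 with the mean of regions and 3 after the smaller shift, beside 24.1% of all gene names after it. Cntf, the gene of the other factor in the medium, was among these 5, at a region downstream of it that was also assigned to Zfp91, with 4.73 in OL and listed at 0 in OPC. Bdnf, the gene of the main TrkB ligand, had 1.80 in OPC and 5.50 in OL. Il11 had 3.00 and 8.61 and Ctf1 had 5.77 and 7.50, each at a region assigned to other genes too.

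Among other receptors of the 2 families, 3 genes had a region with more signal than any member region. Regions were present at 8 of 9, all but Osmr, with OPC calls at 5, OL calls at 8 and a median of 1.11, 4 at 1 or more, beside 34.7% of all gene names, and 0 at -1 or less. With the mean of each gene's regions 1 was at 1 or more, beside 27.9%, and the median was 0.69, beside 0.67. Il6ra, the gene of the interleukin 6 receptor, had 6.88 in OPC and 30.3 in OL, but its 3 regions averaged 0.34. Sorl1, a sortilin-family receptor gene, had 10.1 and 27.1. Sorcs2, another of that family and a coreceptor of the low-affinity neurotrophin receptor, had 28.3 in OPC and 14.3 in OL, and a mean log2 ratio of -0.23 over 13 regions, 10 of them called in OPC and 8 in OL.

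Of 22 adaptor and effector genes of the Trk receptors 20 had a region, 15 with an OPC call and 20 with an OL call. The median was 1.06, with 11 at 1 or more, beside 34.7% of all gene names, and 0 at -1 or less. With the mean of each gene's regions 4 were at 1 or more, beside 27.9%, and the median was 0.72, beside 0.67. Rapgef1, the gene of an exchange factor for the GTPase Rap1, had 4.44 in OPC against 19.96 in OL, with OL calls at all 12 regions and OPC calls at 3. Frs2, a docking protein gene, had 7.25 and 19.7, and 3.83 and 5.13 at its start. Shc4, an adaptor gene, had 6.76 and 16.2 at a region downstream of it, 98914 bp from its start and also assigned to Cep152, and 4.36 and 5.69 at its start, with a mean of 0.21 over 8 regions. Shc1, which links Trk receptors to Ras, had 5.09 and 10.2 at a region on its start that is shared with Flad1 and Cks1b, and a mean of -0.01 over 4 regions. Sqstm1, a scaffold gene, had 4.33 and 10.2 near its start, at a region also assigned to 3010026O09Rik.

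Among 8 other JAK and STAT genes 5 had a region, 3 of them called in OPC and 4 in OL. The median log2 ratio was 0.79, with 1 gene at 1 or more, Stat5b, and 1 at -1 or less, Stat6. Tyk2, the gene of another kinase of these receptors, had 4.21 and 5.53 at a region on its start that was also assigned to Cdc37, with a call in OL only. Stat6 had 4.57 in OPC against 1.07 in OL, in a region downstream of it that was also assigned to Nab2 and BC030440. Stat5b had 1.00 and 3.43.

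Inhibitors of JAK and STAT signalling had the lowest median of the 6 lists, 0.41 against 0.73 for all gene names, though with the mean of each gene's regions the medians were 0.66 and 0.67. Regions were present at 15 of 16, all but Socs2, with OPC calls at 9, OL calls at 14, 1 gene at 1 or more and 1 at -1 or less. Ptprt, a receptor phosphatase gene, had 5.74 in OPC and 11.2 in OL, and 17 of its 20 regions had an OL call and 6 an OPC call. Ptpn1, a phosphatase gene, had 9.19 and 10.6, and 3.33 and 4.67 at its start, both at regions also assigned to LOC100043728. On their starts Pias4 had 5.26 and 10.5, at a region shared with Eef2, and Pias1 had 5.0 and 6.07. Both encode inhibitors of STAT proteins. The 2 genes past a threshold were Socs5, with 7.10 in OPC and 2.73 in OL at 4909 bp upstream, and Socs6, with 2.25 and 8.25. Each had 2 regions, with a mean log2 ratio of -0.01 for Socs5 and 1.71 for Socs6.

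Known STAT3 target genes had regions at 16 of 20, 9 of them called in OPC and 16 in OL. The median log2 ratio was 0.66, with 3 genes at 1 or more and 1 at -1 or less, and 1 and 0 with the mean of each gene's regions. Cebpb, a transcription factor gene, had 6.38 in OPC against 11.1 in OL, and Timp1, a metalloproteinase inhibitor gene, had 2.44 and 10.7 at a region shared with Araf and Syn1. On their starts Pim3, a kinase gene, had 4.91 and 8.92, and Hif1a, the gene of a hypoxia factor, had 3.55 and 6.27. Fos, an immediate early gene, had 2.07 and 5.59 upstream, and 3.18 and 5.195 at its start. Ccnd1, the cyclin D1 gene, had 4.95 in OPC against 1.57 in OL, 64 bp before its start, and a call in OPC only, with a log2 ratio of -1.21. Stat6, Stat5b, Socs5, Socs6, Ccnd1, Cntf and Bdnf were named after their values were seen.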

How the data were processed

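Nkx2.2 ChIP-seq libraries of OPCs and OLs, 1 each, were analysed from the authors' table of merged regions. The submitters' processing notes name BWA, MACS 1.4.2 and build mm9. The sources used here do not give the threshold of the calls, the role of the input or the scaling between libraries. Per the file headers, the deposited average and highest signal of each library, and a mark for a called interval, are given per region. Coordinates are printed as deposited, and whether starts count from 0 or 1 is not stated. The deposited distance runs from the region's middle to the gene start, and no annotation of the deposited build was used, so exons and introns were not told apart. The authors' own promoter feature was not used.

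A region was linked to a gene by the deposited gene names. Older symbols in the table, such as C330002I19Rik for Kidins220, were matched through the RefSeq table of assembly GRCm38.p6. A pseudocount of 1 signal unit was added before log2, which understates the ratio of weak regions, and no filter was used. Python 3.11.15, numpy 2.4.6, pandas 2.3.3 and scipy 1.17.1 were used, and the functions were tested on simulated data. From each list the 3 genes with the highest signal were named, with genes whose start region was called in both libraries, up to 5, and some genes of that rule are not reported here. The members and lists were chosen with earlier results of these data known.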

Additional observations from a re-analysis of the deposited data

How the results depend on the processing

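Every member region at 1 or beyond, or at -1 or beyond, kept its direction with the highest signal in place of the average. The other settings could not test this. A pseudocount cannot change the sign of a ratio. Subtracting 0.24 or 0.74 cannot bring a value of 1 or more below 0, or one of -1 or less above it. Single regions were compared under both other pseudocounts, the highest signal and both rescalings. Over these 190 comparisons, 135 kept their side of the thresholds, 30 lost a threshold and 25 gained one. The sign changed in 16, at 10 regions that lay between -1 and 1: 10 after the shift by all regions, 4 after the shared shift, and 2 with the highest signal, Socs3 at 5575 bp (-0.35) and Lifr at 58463 bp (-0.36). In 50 comparisons of single genes the sign changed in 7, at 4 genes: with the region nearest the start at Lifr (-0.90), Jak1 (0.65), Il6st (0.95) and Jak2 (1.13), and with the mean of regions at Jak1 (0.30), Il6st (0.32) and Jak2 (0.31). The cause was not tested. With calls kept only at or above the library's median highest signal, 20 regions were called in OL in place of 33. That limit, 12 in OL, is the median over the library's own called regions, so it removes many calls in the whole series too. The share of all regions kept was not computed. The median log2 ratio over the 38 regions was 0.48 with a pseudocount of 3, 1.00 with the highest signal, 0.45 after the shift by shared regions, -0.038 after the shift by all regions and 0.997 over the 20 regions whose larger signal was at or above the median of all regions. Over all regions the median was 0.52, 1.00 and 0.49 under the first 3 of these. It was 0 by construction after the shift by all regions, and 0.857 over all regions that passed the same signal filter. Regions at 1 or more numbered 5 with a pseudocount of 3, 8 after the shared shift and 2 after the shift by all regions, beside 19.4%, 27.2% and 13.2% of all regions. Those at -1 or less numbered 5 with a pseudocount of 0.5, 0 with a pseudocount of 3 and 6 with the highest signal. The shares of all regions were 8.29%, 2.96% and 10.8%. After the shifts there were 8 and 9, beside 10.1% and 17.5% of all regions. With the signal filter there was 1 among the 20 regions kept, beside 7.33% of all regions kept by it. Regions above 0 numbered 18 of 38 after the shift by all regions, beside 50.0% of all regions. Among the 20 regions kept by the filter they numbered 15, beside 78.8% of all regions kept by it. Member genes at 1 or more numbered 2 after the shared shift and 0 with the mean of regions, beside 24.1% and 27.9% of all gene names, and those at -1 or less 2 and 0, beside 6.20% and 2.09%. Over the 6 lists together 72 genes had a region. Of these, 25 were at 1 or more and 14 with the mean of regions, beside 34.7% and 27.9% of all gene names. At -1 or less there were 3, with 5 after the shared shift and 1 with the mean, beside 4.19%, 6.20% and 2.09%. The regions behind a gene carry no distance to its end, so the limit of 10 kb from the gene was applied to its start and dropped 3 regions. With this limit 13 regions and 7 genes had an OPC call, and 31 regions and 10 genes an OL call. The shares of all regions under this limit were not computed. No replicate could be left out, with 1 library per state. No paired analysis was possible because each state has 1 library. Depth is unknown, so no limit from counts can be given.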
